A study of Mus musculus with 12 samples.

Results

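The data described here are 10 genes that plasma cells are known for at their surface or in their survival, measured in single plasmablasts and plasma cells (together antibody-secreting cells, ASCs) of mouse bone marrow, spleen and thymus. The genes are Sdc1, Slamf7, Cd93, Tnfrsf17, Tnfrsf13b, Cd28, Mcl1, Bcl2, Bcl2l1 and Bcl2l11, chosen by name from the 32285 genes of the deposited matrices. All 10 were found, each as 1 row. Cells were kept when they held at least 1000 unique molecular identifiers (UMIs, counted RNA molecules) outside genes whose symbols start with Igh, Igk or Igl, and when 1 light-chain V gene took at least 50% of their Igkv and Iglv UMIs. These conditions kept 8715 of 39949 barcodes: 1238 from female and 1665 from male bone marrow, 3567 from female and 1850 from male spleen, and 107 from female and 288 from male thymus.

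The mice were 3 months old, of the C57BL/6 background, and all carried the Prdm1-eYFP reporter, in which a yellow fluorescent protein marks cells that express Prdm1, a transcription factor of ASCs. Cells of 3 mice were pooled for each sort, and the gate was B220+/- CD138HI IgD- CD90.2- Prdm1-eYFP+. CD138 is the protein made from Sdc1, so every cell was selected for high surface product of that member. Each sex and tissue gave 1 droplet library with the 10x Genomics 5' chemistry, so there were 2 libraries for a tissue, 3 for a sex and no repeat of the same sex in the same tissue. P-values for tissue and sex therefore rest on departures of the 6 libraries from additive effects, and not on repeated pools. Those for classes of cells within libraries rest on how the class differences vary between libraries. In each fit the spread of a gene is estimated with help from the other genes. The labels do not say whether the same mice gave all tissues of their sex.

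Plasma cells depend on survival signals from the cells around them. BCMA (Tnfrsf17) and TACI (Tnfrsf13b) bind the cytokines APRIL and BAFF, which myeloid and stromal cells of the bone marrow supply, and CD28 receives signals from CD80 and CD86 on neighbouring cells. Survival then turns on the balance inside the BCL2 family: MCL1, BCL2 and BCL-XL (Bcl2l1) hold back the pore-forming proteins of the mitochondrion, and BIM (Bcl2l11) is a BH3-only protein that counters them.

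The sequences before the transcription starts of the genes that differed most between isotypes are shown first, with that of Mcl1, a survival gene for which no difference was called. RefSeq's table (GRCm38.p6) held 11 promoters for 8 of the 10 genes, with no entry for Cd28 or Cd93. The 250 bases before the start are printed 5' to 3' on the gene's strand. They lie at chr16:11313559-11313808 (plus strand) for Tnfrsf17, chr1:106714291-106714540 (minus strand) for Bcl2 and chr3:95658471-95658720 (plus strand) for Mcl1.
Tnfrsf17: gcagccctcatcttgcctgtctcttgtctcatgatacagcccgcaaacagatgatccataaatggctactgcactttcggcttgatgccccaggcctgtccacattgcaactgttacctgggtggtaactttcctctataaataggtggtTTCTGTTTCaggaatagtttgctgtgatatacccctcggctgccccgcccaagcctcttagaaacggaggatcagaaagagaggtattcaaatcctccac
Bcl2: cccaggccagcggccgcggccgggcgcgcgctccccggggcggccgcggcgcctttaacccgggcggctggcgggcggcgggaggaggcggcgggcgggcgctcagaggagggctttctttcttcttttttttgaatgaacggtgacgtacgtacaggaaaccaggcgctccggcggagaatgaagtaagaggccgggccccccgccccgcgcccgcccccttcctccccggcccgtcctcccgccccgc
Mcl1: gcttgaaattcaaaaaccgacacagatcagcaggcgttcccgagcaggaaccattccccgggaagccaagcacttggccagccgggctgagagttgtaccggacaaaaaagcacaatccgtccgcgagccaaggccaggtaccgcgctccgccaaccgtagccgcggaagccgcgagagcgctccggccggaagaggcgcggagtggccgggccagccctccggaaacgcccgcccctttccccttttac
Capitals mark a match to GAAANNGAA or its reverse complement TTCNNTTTC, an element type bound by interferon regulatory factors. Among the 11 promoters this was found in that of Tnfrsf17 alone, and 7.13% of all 32851 promoters in the table hold it within the same 250 bases. Both strands were also searched for GGGACTTTC (a kappa B element, in 0.289% of all promoters), CAGGTG (an E box, in 17.2%) and TGACGTG (a core of the unfolded protein response element, in 1.65%), and none of the 11 promoters held these letters. The single match overlaps no other. GC content was 49.2% for the Tnfrsf17 window, 74.8% for Bcl2 and 64.4% for Mcl1. By GENCODE M21 (GRCm38) the Tnfrsf17 gene spans 11313812 to 11320074 of chromosome 16, Bcl2 spans 106538178 to 106714274 of chromosome 1 and Mcl1 spans 95658788 to 95663176 of chromosome 3. Each window lies just upstream of the span of its gene.

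Levels are given as CPM, the UMIs of a gene per 1000000 UMIs outside genes starting with Igh, Igk or Igl, summed over the cells of a library or of a class within it. The fitted fold changes also use a scaling factor for each sum (TMM), which these CPM values do not. The fold changes and the CPM values can therefore differ in size and sign. Where values are paired, the female library comes first and the male one second. The kept cells held from 264621 such UMIs in female thymus to 21287170 in female spleen, with a median of 2035 to 4352 per cell over the libraries. Female spleen stood apart in the share of UMIs from ribosomal protein genes, with a median of 10.2% per cell against 1.93 to 3.86% in the other 5 libraries. Any 2 libraries shared 0 to 11 kept barcodes. Free RNA, RNA from broken cells that enters every droplet, was estimated at 4.86 to 18.0% of UMIs, and by that estimate it made up 1.88 to 21.8% of any member's UMIs in any library. The 10 genes listed as ASC markers were detected in all 6 libraries, and Sdc1, Tnfrsf17 and Slamf7 are among them. Of the macrophage list, 1 to 8 of 8 genes were detected, at a summed 6.73 to 17.3 CPM. The B cell list came to 1300.0 and 825 CPM in thymus (5 and 6 of 8 detected) and 521 to 734 CPM in the other 4 libraries (8 of 8), and its part in the thymus contrasts was not tested; Pax5 and Fcer2a were at 0 in both thymus libraries. T cell genes came to 5.68 to 79.4 CPM (5 to 7 of 8 detected), highest in female thymus. There Trbc2, a T cell receptor constant gene, led the list, at 65.6 CPM in cycling and 46.2 CPM in non-cycling cells. Few molecules lie behind these values, since the 2 sums held 91401 and 173220 UMIs in all. Of the 8 genes only Cd3g and Cd4 were at 0 in female thymus and only Cd3d and Cd4 in male thymus, and the part of this list in the thymus contrasts was not tested. Neutrophil genes came to 549 CPM in the female and 1363 CPM in the male marrow library, at most 0.141 CPM in spleen, and none was detected in thymus. Only 3 kept cells, all from bone marrow, had 1% or more of their UMIs on any of the macrophage, neutrophil, T cell, erythroid or plasmacytoid dendritic cell lists, and leaving them out changed no call on a member. Xist was at 672 to 1629 CPM in the female libraries and 0.646 to 1.68 CPM in the male ones, as labelled.

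All 10 genes were detected in every library, and none was called between tissues or sexes. Sdc1, a proteoglycan that displays heparan sulfate chains and can bind APRIL, was at 371 and 525 CPM in marrow, 286 and 397 in spleen, then 348 and 443 in thymus. The male library was the higher in each tissue, and the ranges of the tissues overlapped. Slamf7, a homotypic receptor of the SLAM family, kept within 799.6 to 1001 CPM over the 6 libraries, a ratio of 1.25 between the highest and the lowest. Cd93, a C-type lectin-like membrane protein needed for plasma cells to persist in bone marrow, was at 92.0 and 108 CPM in marrow, 60.3 and 115 in spleen, then 98.3 and 149 in thymus. Female spleen was lowest for it and male thymus highest.

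Among the receptors for survival signals, Tnfrsf17 was at 252 and 259 CPM in marrow, 277 and 245 in spleen, then 200.3 and 257 in thymus, and female thymus was lowest with 53 UMIs behind its value. Tnfrsf13b lay within 333 to 524 CPM, again with each male library above the female one of its tissue. Cd28 was at 150.4 and 114 CPM in marrow, 168 and 149.7 in spleen, then 246 and 192 in thymus. For Cd28 the order was reversed, each female library being above the male one, and both thymus libraries were above the other 4. The fitted log2 fold changes were 0.17 (SE 0.33) for thymus against spleen and 0.46 (SE 0.33) for thymus against bone marrow. For male against female the change was -0.46 (SE 0.26), and none of these was called. How many of all genes show such orders was not counted. T cells also express Cd28, and the T cell list was at 79.4 and 26.9 CPM in thymus against 5.68 to 11.9 CPM elsewhere; its part in the Cd28 levels was not tested.

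In the BCL2 family, Bcl2 was at 128 and 156 CPM in marrow, 77.1 and 157 in spleen, then 79.4 and 159.8 in thymus. The 3 male libraries fell within 156 to 159.8 CPM, and all 3 female ones were lower. Mcl1 lay within 157 to 276 CPM and Bcl2l1 within 9.15 to 12.9 CPM, the latter from as few as 3 UMIs in female thymus. Bcl2l11 was at 47.1 and 62.2 CPM in marrow, 69.9 and 79.2 in spleen, then 41.6 and 42.1 in thymus. Both thymus libraries were lowest for this gene, from 11 and 50 UMIs, and both spleen libraries highest. How many of all genes order the tissues this way, or have all male libraries on the same side of the female ones, was not counted.

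**Figure D1:**
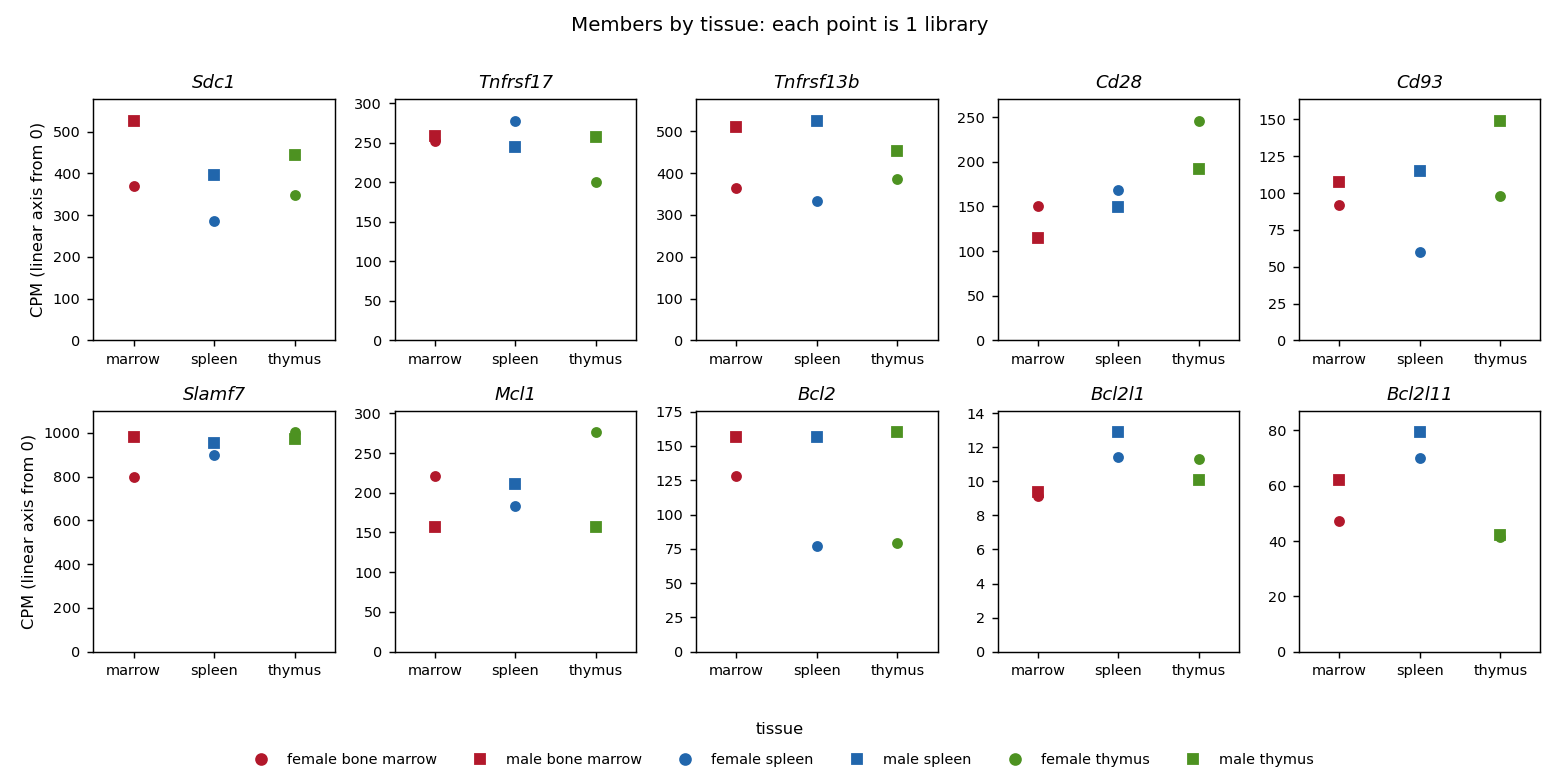
CPM (y axes, linear, from 0) of the 10 genes in cells of bone marrow, spleen and thymus (x axes); each point is 1 library, circles female and squares male, with no mean or error drawn because a tissue has only 2. Bcl2l11 is at 41.6 and 42.1 CPM in thymus, below the other 4 libraries, and Bcl2 is higher in the male library of every tissue.

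No member was called in any contrast of tissue or sex by edgeR's quasi-likelihood test with adjusted p under 0.05 over all genes tested. The count was 0 of 10 for thymus against bone marrow, where 0.765% of 11239 genes were called, and 0 of 10 for thymus against spleen, where 0.632% were. It was also 0 of 10 for spleen against bone marrow (0.436% of all genes) and for male against female (0.427%). DESeq2 called 0 of 10 in each of the 4. At an unadjusted p under 0.05 there was 1 member for thymus against spleen and 1 for male against female, and none for the other 2 contrasts. Of all 11239 genes, 1033 and 1129 were under that limit in the first 2. It was 981 for thymus against bone marrow and 523 for spleen against bone marrow.

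The nearest to a call was Bcl2l11 in thymus against spleen, whose log2 fold change was -1.12 (SE 0.33, adjusted p = 0.152) with a 95% interval of -1.79 to -0.45. Without the male spleen library it was called at -1.40 (adjusted p = 0.00369). In cells with under 10% mitochondrial and at least 10% ribosomal UMIs, which left 15 cells of female and 63 of male thymus, it was called in all 3 tissue contrasts, at -2.53 for thymus against spleen (adjusted p = 1.65e-06). Bcl2 was 0.57 (SE 0.27, adjusted p = 0.477) for male against female, and its interval was 0.02 to 1.12. The same limits on ribosomal and mitochondrial content gave calls for Bcl2 (0.42, adjusted p = 0.0278) and Cd28 (-0.45, adjusted p = 0.00941) for male against female, and in non-cycling IgA cells alone (11 in female thymus) Tnfrsf17 was at -1.01 (adjusted p = 0.0345). The 95% intervals of the 10 genes reached 0.49 to 0.94 log2 units to either side of the estimates in the 4 contrasts. Some estimates did not have the direction of the CPM values. Sdc1 was at -0.07 (SE 0.38) for thymus against spleen, though its CPM was higher in thymus in each sex. Slamf7 and Mcl1 were each at -0.13 (SE 0.42 and 0.34) for thymus against bone marrow. Their mean CPM was higher in thymus, at 987 against 891 for Slamf7 and 217 against 189 for Mcl1.

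Genes of the related pathways were called between tissues as follows. The 10 lists held 132 genes, of which 114 were tested. For thymus against bone marrow 3 were higher and 1 was lower, 3.51% of those tested against 0.765% of all genes. The share was 2.63% for thymus against spleen, against 0.632% of all genes, and 0.877% in each of the other 2 contrasts. Sdc3, another syndecan, was higher, at 2.08 (SE 0.32, adjusted p = 0.000183) and Xylt2, which starts heparan sulfate chains, was lower, at -2.49 (SE 0.58, adjusted p = 0.0263). The other 2 were Ly6c2 at 3.29 (SE 0.55, adjusted p = 0.000663) and Ly6c1 at 2.95 (SE 0.65, adjusted p = 0.0174), near-identical neighbours whose UMIs may be split between them. Xylt2 and Ly6c1 rest on low levels. Over the cycling and non-cycling sums of the libraries Xylt2 was at 0 to 19.0 CPM and Ly6c1 at 1.14 to 12.5 CPM. For thymus against spleen Sdc3 and Ly6c2 were higher, at 1.96 (SE 0.31, adjusted p = 0.000609) and 2.69 (SE 0.55, adjusted p = 0.0101), and Epcam, an adhesion protein, was lower at -1.47 (SE 0.36, adjusted p = 0.0478). Pdcd1lg2, a ligand of PD-1, was the only list gene called for spleen against bone marrow, at -1.24 (SE 0.25, adjusted p = 0.0105), and Ctla4, an inhibitory receptor for CD80 and CD86, the only one for male against female, at -1.17 (SE 0.23, adjusted p = 0.00856).

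The isotype classes differed in several members: Tnfrsf17 and Bcl2 were low in IgG cells and Cd28 was high in IgA cells. A cell's class is that of its most abundant heavy constant gene: 7085 cells were IgM, 491 IgA and 1130 IgG. To keep the cell cycle apart, classes were compared within libraries over cells with no Mki67 and no Top2a UMI, in sums of at least 20 cells. That left 6 IgM sums (48 to 1558 cells), 5 IgA sums (20 to 147) and 5 IgG sums (29 to 361), with IgA and IgG of female thymus left out. The V(D)J contigs gave a second read of the class: in 4870 kept cells with an assembled heavy chain, 95.8 to 99.5% per library had the same class by both. Those contig tables shared 106 to 1455 kept barcodes with the gene expression library of the same tissue and the other labelled sex, and at most 10 with any other library. They were matched by these barcodes and not by their sex labels.

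In IgG cells Bcl2 and Tnfrsf17 were below their levels in IgM cells. Bcl2 in IgM cells was at 163 and 180.5 CPM in marrow, 119 and 191 in spleen, then 99.8 and 231 in thymus. In IgG cells it was at 57.0 and 53.9 CPM in marrow, 22.3 and 56.3 in spleen and 41.5 in male thymus. Every IgG value was below every IgM value, and the fitted log2 fold change was -2.06 (SE 0.16, adjusted p = 5.33e-15). IgA cells lay between, at 125 and 71.9 CPM in marrow, 74.4 and 143 in spleen and 139 in male thymus, with -0.67 (SE 0.15, adjusted p = 0.00199) against IgM and -1.39 (SE 0.22, adjusted p = 6.02e-06) for IgG against IgA. In each of the 5 libraries with all 3 classes the order was IgM, IgA, IgG from high to low.

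Tnfrsf17 followed another order. In IgM cells it was at 276 and 286 CPM in marrow, 355 and 279 in spleen, then 172 and 289 in thymus. IgG cells held 69.2 and 47.9 CPM in marrow, 79.7 and 100.4 in spleen and 199 in male thymus. The IgG value was below the IgM value in 5 of 5 libraries, and the male thymus IgG value alone was above an IgM value, that of female thymus. The fitted change was -1.86 (SE 0.17, adjusted p = 1.19e-12). IgA cells were at 436 and 281 CPM in marrow, 561 and 308 in spleen and 303 in male thymus, above IgM in 4 of 5 libraries, with 0.42 (SE 0.14, adjusted p = 0.0474). IgG against IgA, where the values did not overlap, gave -2.28 (SE 0.19, adjusted p = 7.42e-14).

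Tnfrsf13b, the other receptor of BAFF and APRIL, was likewise highest in IgA and lowest in IgG cells. It was at 366 to 539 CPM in IgM, 471 to 725 CPM in IgA and 285 to 533 CPM in IgG cells. IgA was above IgM in 5 of 5 libraries (0.35, SE 0.11, adjusted p = 0.0381), IgG was below IgM in 4 of 5 (-0.33, SE 0.11, adjusted p = 0.0371) and below IgA in 5 of 5 (-0.69, SE 0.12, adjusted p = 8.95e-05).

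Cd28 was highest in IgA cells. They held 219.6 and 333 CPM in marrow, 304 and 297 in spleen and 316 in male thymus. In IgM cells the range was 121 to 189 CPM and in IgG cells 93.6 to 257 CPM. No IgA value overlapped an IgM value, and the fitted change was 0.80 (SE 0.13, adjusted p = 2.58e-05). IgG was below IgA in 5 of 5 libraries, with -1.14 (SE 0.16, adjusted p = 1.01e-06), and was not called against IgM (-0.34, SE 0.14, adjusted p = 0.113). Cd93 was also highest in IgA cells, at 87.9 to 319 CPM in IgA, 71.3 to 151 CPM in IgM and 58.5 to 149 CPM in IgG cells, with overlapping ranges. Its changes were 0.65 (SE 0.15, adjusted p = 0.00229) for IgA against IgM and -0.86 (SE 0.18, adjusted p = 0.000757) for IgG against IgA.

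Bcl2l1 went the other way from Bcl2, from few molecules. It had 0 to 65 UMIs per IgM sum, or 0 to 8.36 CPM, and 3 to 30 UMIs per IgG sum, or 15.9 to 33.2 CPM. The IgG values lay above all IgM and all IgA values, and the change against IgM was 1.38 (SE 0.33, adjusted p = 0.00226). Against IgA it was 1.63 (SE 0.57, adjusted p = 0.0646), not called, with 2 of the 5 IgA sums at 0 UMIs. Bcl2l11 was at 32.6 to 137 CPM in IgG and 26.1 to 114 CPM in IgA cells, higher in IgG in 3 of 5 libraries, with 0.84 (SE 0.25, adjusted p = 0.0245).

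Sdc1, Slamf7 and Mcl1 were called in none of the isotype contrasts. For IgG against IgM the 95% intervals were -0.11 to 0.32 for Sdc1, -0.39 to 0.05 for Slamf7 and -0.11 to 0.35 for Mcl1. Slamf7 was lower in IgA than in IgM cells in 5 of 5 libraries, with -0.24 (SE 0.11, adjusted p = 0.214).

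**Figure D2:**
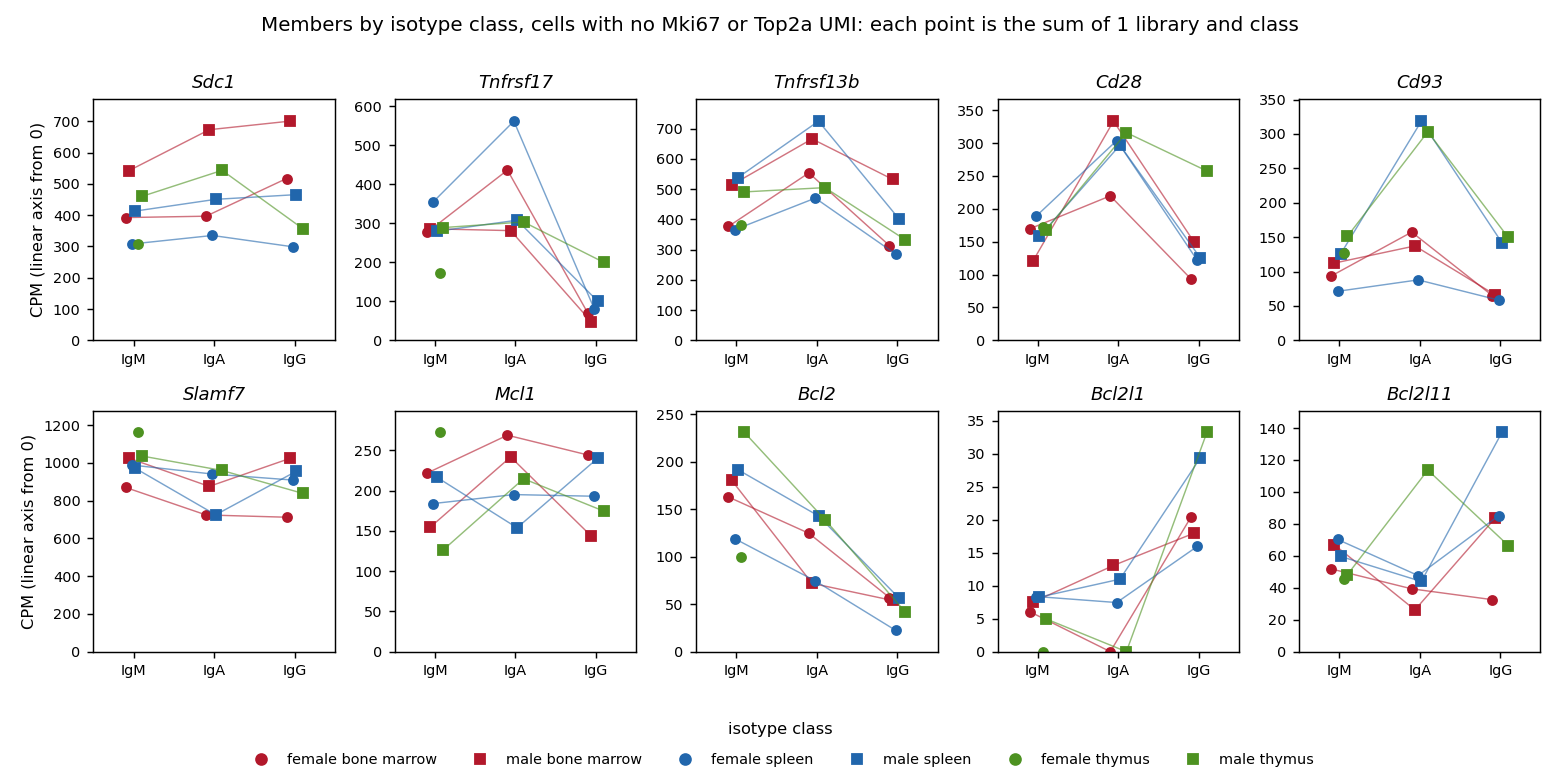
CPM (y axes, linear, from 0) of the 10 genes by isotype class (x axes) in cells with no Mki67 or Top2a UMI; each point is the sum of 1 library and class of at least 20 cells, and lines join the classes of a library. Bcl2 steps down from IgM through IgA to IgG in every joined library, Tnfrsf17 is at 47.9 to 199 CPM in IgG cells, and Cd28 peaks in IgA cells.

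The 3 isotype contrasts share their sums and are not independent. In all, 4 of 10 members were called for IgG against IgM (1 higher, 3 lower), where 11.7% of 7440 genes were called. The count was 5 of 10 for IgA against IgM (4 higher, 1 lower; 8.95% of all genes) and 6 of 10 for IgG against IgA (1 higher, 5 lower; 8.63%). The median log2 fold change of the 10 was -0.19, 0.17 and -0.40, against 0.01, -0.01 and 0.01 over all genes tested. DESeq2 called 4, 4 and 5 of the members, and 730, 600 and 581 of the 16237 genes it tested.

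The calls on Bcl2 and Tnfrsf17 between IgG and either other class, on Cd28 and on Tnfrsf13b between IgG and IgA held under all 16 alternatives run, which include isotypes taken from the contigs. Bcl2 between IgA and IgM was -0.01 when 1 light-chain V gene had to take 80% of UMIs and -0.41 (adjusted p = 0.144) with contig isotypes, and -0.57 (adjusted p = 0.083) in thinned cells. With contig isotypes both calls on Cd93 were also lost (0.39 for IgA against IgM and -0.56 for IgG against IgA). With the 80% limit Cd93 kept about its size but was not called, at 0.65 for IgA against IgM (adjusted p = 0.116) and -0.78 for IgG against IgA (adjusted p = 0.0955). Under that limit Bcl2l1 for IgG against IgM (1.31, adjusted p = 0.0861) was not called either. The calls on Tnfrsf17 and Tnfrsf13b between IgA and IgM, Tnfrsf13b between IgG and IgM and Bcl2l11 between IgG and IgA were each lost in 6 to 9 of 16 alternatives. Among these, leaving out female spleen gave 0.29, 0.37, -0.32 and 0.80 in that order. Leaving out male spleen also ended all 4 calls (0.44, 0.33, -0.33 and 0.62). Leaving out female bone marrow ended the first 3 (0.30, 0.25 and -0.34). Without male bone marrow Tnfrsf13b between IgA and IgM (0.35) and Bcl2l11 (0.75) were not called, without female thymus Tnfrsf17 between IgA and IgM (0.43), and without male thymus Tnfrsf13b between IgG and IgM (-0.30). Other alternatives added calls. Cd28 between IgG and IgM was called at -0.49 (adjusted p = 0.0423) in thinned cells, at -0.44 (adjusted p = 0.0397) without male bone marrow and at -0.47 (adjusted p = 0.0104) without male thymus. Bcl2l11 between IgG and IgM, 0.44 (SE 0.16, adjusted p = 0.0609) and not called with all libraries, was called at 0.49 (adjusted p = 0.0486) with the 80% limit, at 0.56 (adjusted p = 0.0125) with contig isotypes and at 0.55 (adjusted p = 0.0118) without female bone marrow. Bcl2l1 between IgG and IgA was called at 1.67 (adjusted p = 0.0363) with no filter on low counts and at 1.48 (adjusted p = 0.00434) when cycling cells were included.

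Markers of other cells were summed in the 3 classes. The B cell list, which B220+ ASCs may also express in part, came to 402 to 962 CPM in IgM, 138 to 714 CPM in IgA and 595 to 955 CPM in IgG cells, and its part in the isotype differences was not tested. Macrophage genes came to at most 19.6, 13.1 and 10.1 CPM in the same order. The summed ASC list was at 60407 to 130264 CPM in IgM, 100576 to 149102 CPM in IgA and 63731 to 92882 CPM in IgG cells. Genes of plasmacytoid dendritic cells came to 9.07 to 71.3 CPM in IgM (1 to 3 detected), 37.9 to 189 CPM in IgA (1 to 2) and 0 to 17.1 CPM in IgG cells (0 to 3). Most of the IgA sum was Ccr9, a gut-homing receptor (37.9 to 183 CPM), and Siglech and Klk1, markers of that lineage, were at 0 in all 5 IgA sums. In IgM cells Cox6a2 made up most of it (9.07 to 71.3 CPM).

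Within IgG, the subclasses with at least 20 such cells all lay below the IgM range for Bcl2 and Tnfrsf17. No IgG subclass of a thymus library had 20 cells, and the male thymus IgG sum, from 29 cells and 24 UMIs, was inside the IgM range for Tnfrsf17, at 199 CPM. Bcl2 was at 22.2 to 74.5 CPM in Ighg2b cells of 3 libraries and 21.4 to 47.8 CPM in Ighg2c cells of 2, and in female spleen at 24.0 CPM in Ighg1 and 24.8 CPM in Ighg3 cells. Tnfrsf17 was at 65.3 to 112 CPM, 84.1 to 143 CPM, 114 CPM and 94.3 CPM in the same order. Bcl2l11 was at 104 to 207 CPM in Ighg2c and 35.9 to 86.9 CPM in Ighg2b cells, and in female spleen at 144 CPM in Ighg1 and 49.6 CPM in Ighg3 cells. The Ighg1 and Ighg3 values of Bcl2 rest on 4 and 5 UMIs, and differences between subclasses were not tested.

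Several genes listed for the BAFF and APRIL pathway were lower in IgG cells too, and a link to the receptor levels was not tested. Over all lists 89 genes were tested between isotypes, and 27% were called for IgG against IgM, 18% for IgA against IgM and 22.5% for IgG against IgA, where 11.7, 8.95 and 8.63% of all genes were. Of 15 genes of the BAFF and APRIL pathway tested, 6 (40%) were lower in IgG than in IgM cells and none was higher. Nfkb2, the precursor of the noncanonical NF-kappa B subunit, was at 47.7 to 101 CPM in IgM and 12.2 to 35.9 CPM in IgG cells, with no overlap, and its log2 fold change was -1.82 (SE 0.19, adjusted p = 1.06e-10). Relb, its partner, was at -1.25 (SE 0.20, adjusted p = 5.23e-06), and the inhibitors Tnfaip3 and Nfkbie, themselves NF-kappa B targets, were at -1.26 (SE 0.27, adjusted p = 0.000487) and -1.07 (SE 0.24, adjusted p = 0.000954). Against IgA, 5 were lower and 1 was higher, led by Nfkb2 at -1.61 (SE 0.27, adjusted p = 1.79e-05), Relb at -1.43 (SE 0.28, adjusted p = 0.000245), Nfkbie at -1.24 (SE 0.33, adjusted p = 0.0105) and Nfkbia at -0.90 (SE 0.16, adjusted p = 8.95e-05). Between IgA and IgM 1 of 15 was called (6.67%, near the 8.95% of all genes), Tnfrsf13c, the third BAFF receptor, at -0.65 (SE 0.16, adjusted p = 0.00619). The list's median was -0.43 for IgG against IgM, against 0.01 over all genes.

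In the wider BCL2 family 6 effectors and BH3-only genes were tested, with 1 call for each class against IgM (16.7%) and none for IgG against IgA, counts that are too small to set apart from the 11.7, 8.95 and 8.63% of all genes. Bak1, a pore-forming effector, was higher in IgG than in IgM cells at 0.71 (SE 0.21, adjusted p = 0.019), and Bid, a BH3-only gene, was higher in IgA than in IgM cells, at 0.80 (SE 0.25, adjusted p = 0.0319). Cycs, cytochrome c, was higher in IgG cells, at 0.45 (SE 0.14, adjusted p = 0.0181). The 1 other pro-survival gene tested was not called in any isotype contrast. Trib1, an adaptor for protein degradation, was the 1 of 6 MCL1 turnover genes called for IgG against IgM (16.7%, again too few to set apart from 11.7%), at -0.70 (SE 0.14, adjusted p = 0.000198).

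Among surface families, 3 of 4 tested genes of the CD28 and B7 list were lower in IgG than in IgM cells (75%, against 11.7% of all genes): Pdcd1lg2 (-2.23, SE 0.33, adjusted p = 9.43e-07), the inhibitory receptor Btla (-1.97, SE 0.19, adjusted p = 1.38e-11) and Ctla4 (-0.87, SE 0.22, adjusted p = 0.00374). Btla and Pdcd1lg2, 2 of the 4 (50%, against 8.95% of all genes), were also lower in IgA cells, at -1.37 (SE 0.22, adjusted p = 9.89e-06) and -1.12 (SE 0.34, adjusted p = 0.0262). Of 4 SLAM genes tested, 3 were called for IgG and 2 for IgA against IgM (75 and 50%, against 11.7 and 8.95% of all genes). Slamf9 was lower and Slamf6 higher in both switched classes, at -0.96 (SE 0.23, adjusted p = 0.00274) and 0.84 (SE 0.16, adjusted p = 0.000148) for IgG and -1.47 (SE 0.34, adjusted p = 0.00264) and 0.76 (SE 0.22, adjusted p = 0.0163) for IgA, and Cd48 was higher in IgG (0.54, SE 0.15, adjusted p = 0.00866). Sdc4, a syndecan related to Sdc1, was higher in IgA cells (0.91, SE 0.15, adjusted p = 2.02e-05) and Hpse, which cuts heparan sulfate, in IgG cells (0.87, SE 0.17, adjusted p = 0.00016), each the only 1 of 13 syndecan and heparan sulfate genes called in its contrast with IgM (7.69%), a share below those of all genes.

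Of 20 other plasma cell surface genes tested, 6 were higher and 1 was lower in IgG than in IgM cells, 35% against 11.7% of all genes. In IgA against IgM 3 were higher and 6 lower, 45% against 8.95% of all genes. Itgb7, the integrin chain of gut homing, was at 239 to 669 CPM in IgA, 53.7 to 179.6 CPM in IgG and 30.4 to 81.6 CPM in IgM cells, with 2.94 (SE 0.15, adjusted p = 5.26e-22) for IgA against IgM. Lag3, an inhibitory receptor, was at 99.8 to 207 CPM in IgM cells, 16.4 to 65.9 CPM in IgA and 0 to 29.9 CPM in IgG cells, and no switched value reached an IgM value. Its log2 fold changes were -2.23 (SE 0.23, adjusted p = 1.95e-10) for IgA and -2.67 (SE 0.20, adjusted p = 1.81e-15) for IgG. Cxcr4, the receptor that holds plasma cells in bone marrow, was lower in IgA cells, at -1.40 (SE 0.33, adjusted p = 0.00282). Between IgG and IgA, 7 of the 20 were higher in IgG and 1 was lower, 40% against 8.63% of all genes. The lower gene was Itgb7, at -1.83 (SE 0.18, adjusted p = 1.61e-11). None of the 10 IL-6 receptor and JAK-STAT genes was called for either class against IgM, which for 10 genes is close to the shares of all genes.

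**Figure D3:**
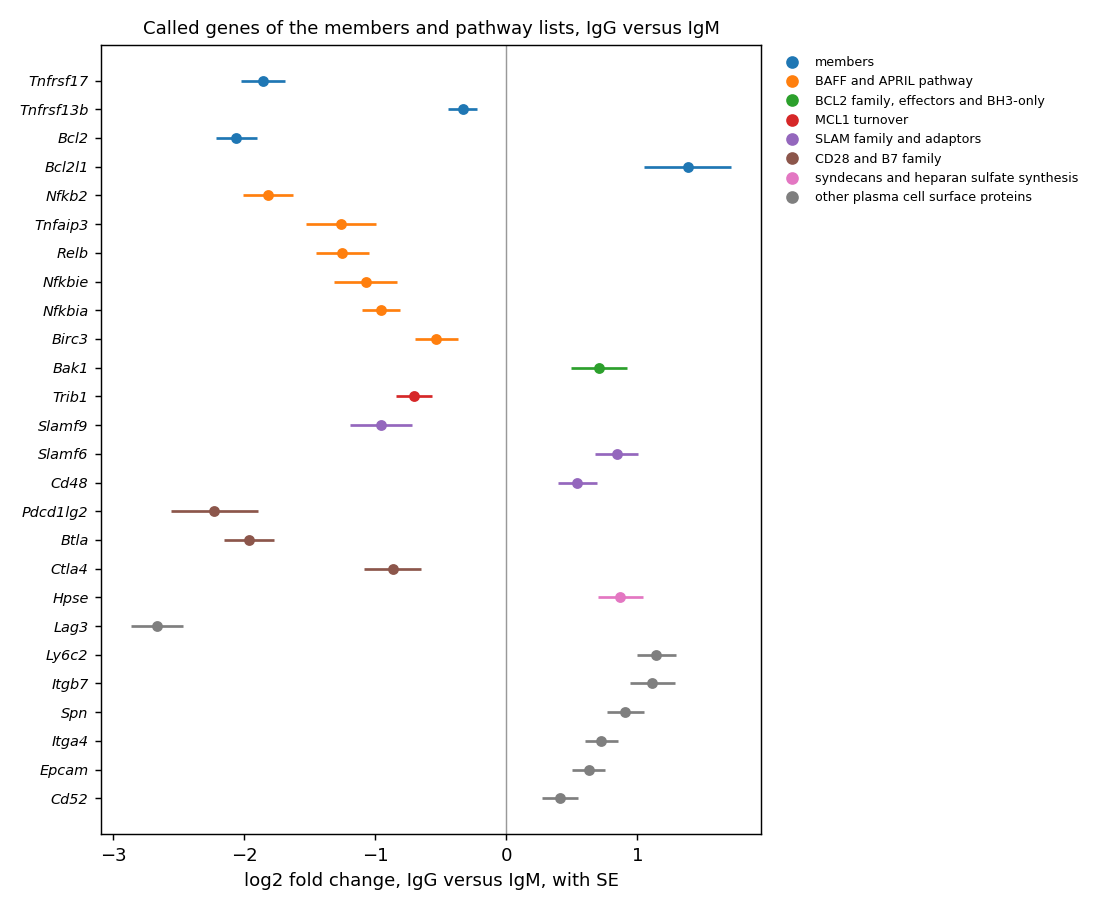
Log2 fold change for IgG against IgM (x axis, 0 marks no change) of the 4 members called and of the genes called in the pathway lists, apart from the apoptosome and caspase list; points are edgeR estimates from the library sums and bars are 1 SE. The BAFF and APRIL genes and the CD28 and B7 genes all lie left of 0, from -2.23 for Pdcd1lg2 upwards, and Lag3 lies farthest left at -2.67.

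The last division was by cell cycle. Cells with at least 1 UMI of Mki67 or Top2a, genes of dividing cells, are called cycling here, which held for 3287 of the 8715 cells and 23.6 to 42.0% of a library. Such cells had a median of 2074 to 5629 UMIs over the libraries, against 1991 to 3687 in the others, and a deeper cell is more likely to show such a UMI. By the free RNA estimate, 3.82 to 19.96% of the Mki67 UMIs and 3.55 to 22.5% of the Top2a UMIs of a library came from other cells, most in female spleen, so some cells so called may hold no such RNA of their own, and how many was not tested. Each library gave 1 sum of each kind.

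Bcl2 was lower in cycling cells. It was at 89.8 and 127 CPM in marrow, 57.1 and 135 in spleen, then 87.5 and 90.5 in thymus in cycling cells. In the others it was at 152 and 174 CPM in marrow, 98.4 and 177 in spleen, then 75.0 and 193 in thymus. Cycling cells were lower in 5 of 6 libraries, female thymus being the exception, from 8 and 13 UMIs. The log2 fold change was -0.65 (SE 0.07, adjusted p = 3.55e-08). Tnfrsf17 was at 213 and 225 CPM in marrow, 239 and 227 in spleen, then 109 and 217 in thymus in cycling cells. The others held 248 to 318 CPM, all 6 above every cycling value, and the change was -0.39 (SE 0.07, adjusted p = 8.58e-05).

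Smaller falls were called for the other surface genes apart from Tnfrsf13b. They were -0.24 (SE 0.07, adjusted p = 0.0076) for Sdc1, -0.25 (SE 0.08, adjusted p = 0.0281) for Slamf7, -0.38 (SE 0.07, adjusted p = 8.85e-05) for Cd93 and -0.31 (SE 0.07, adjusted p = 0.00242) for Cd28. Slamf7 was lower in cycling cells in 6 of 6 libraries and Sdc1, Cd93 and Cd28 in 5 of 6, the exception being female thymus for each. That library had 36 cycling and 71 other cells. They held 33 and 59 UMIs of Sdc1, 32 and 33 of Cd28, and 9 and 17 of Cd93, whose values were nearly equal (98.5 against 98.1 CPM). In the cycling cells of that library the T cell list was at 98.5 CPM, and its part in the Cd28 value was not tested. Bcl2l1 was the 1 member higher in cycling cells, at 10.9 to 15.5 CPM against 6.52 to 11.5 CPM, higher in 5 of 6 libraries, with 0.53 (SE 0.14, adjusted p = 0.0065). Its exception, female thymus, had 1 UMI in cycling and 2 in the other cells. Tnfrsf13b (-0.18, SE 0.07, adjusted p = 0.0548), Mcl1 (-0.07, SE 0.07, adjusted p = 0.487) and Bcl2l11 (-0.08, SE 0.11, adjusted p = 0.654) were not called.

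**Figure D4:**
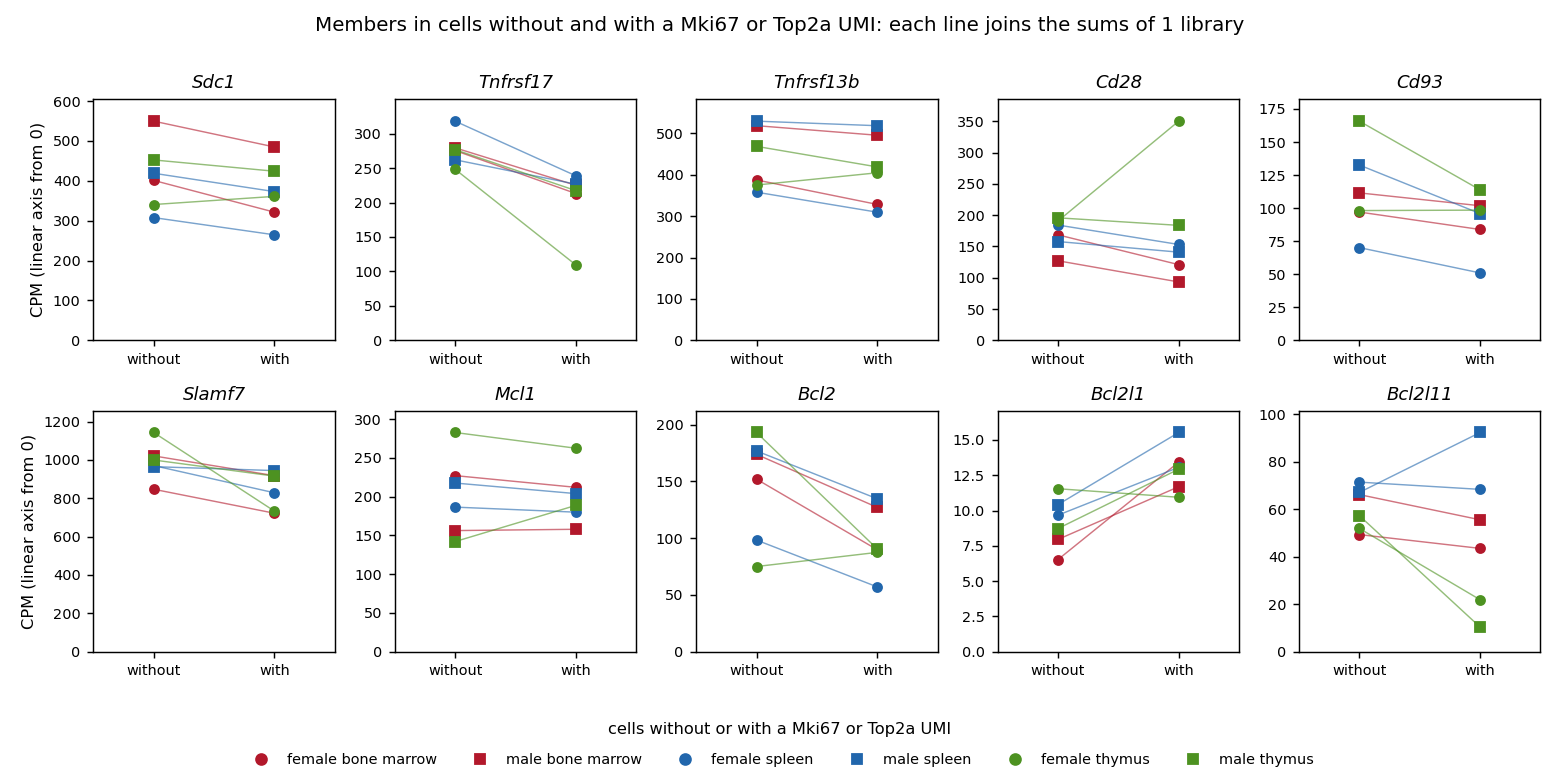
CPM (y axes, linear, from 0) of the 10 genes in cells without and with a Mki67 or Top2a UMI (x axes); each line joins the 2 sums of 1 library. Tnfrsf17 falls along all 6 lines and Bcl2 along 5 of 6, and Bcl2l1 rises along 5 of 6.

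These are 7 of 10 members (1 higher, 6 lower), where 23.9% of 10768 genes were called, with a median of -0.25 over the members and -0.02 over all genes. DESeq2 called 8 of 10, and 2159 of the 17189 genes it tested. With every cell thinned to 1000 UMIs before it was called cycling, Bcl2 was at -0.33 (adjusted p = 0.0485), while Cd93 at -0.12 (adjusted p = 0.683) and Cd28 at -0.28 (adjusted p = 0.102) were no longer called. Bcl2l1 was not among the genes tested in thinned cells, so its call has no such check. Slamf7 was lost with the 80% light-chain limit (-0.24, adjusted p = 0.112), without female or male bone marrow (-0.26 and -0.25) or female spleen (-0.27), and Bcl2l1 was at 0.80 in the cells of high ribosomal content. Tnfrsf13b, not called above, was called at -0.19 (adjusted p = 0.00085) by DESeq2, at -0.19 (adjusted p = 0.0375) with RLE size factors, at -0.22 (adjusted p = 0.000929) in the cells of high ribosomal content and at -0.18 (adjusted p = 0.0221) without female thymus.

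The contrast within IgM cells alone had the same directions: Bcl2 was at -0.62, Tnfrsf17 at -0.42 and Bcl2l1 at 0.49. In the sums of at least 20 cycling cells, IgG again held less Bcl2 (12.9 to 44.2 CPM, 4 libraries) than IgM (69.7 to 150.1 CPM, 6 libraries).

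Neutrophil genes were at 1287 and 3455 CPM in the cycling sums of female and male bone marrow and at 97.6 and 94.9 CPM in the others, and were at most 0.2 CPM in spleen. Without the 3 cells, all cycling, in which these genes took 1% or more of UMIs, Bcl2 was at -0.65 and Tnfrsf17 at -0.39. Other cells held UMIs of these genes below that limit. The B cell list was higher in cycling cells in 5 of 6 libraries, at 621 to 983 CPM against 428 to 749 CPM, and lower in female thymus, at 1094 against 1409 CPM, and its part in the differences was not tested. The ASC list was at 36192 to 88456 CPM in cycling and 70893 to 127544 CPM in the other cells.

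Of the other genes of these pathways 113 were tested, and 31 were lower and 11 higher in cycling cells, 37.2% in all against 23.9% of all genes. Over all genes 1522 were higher and 1052 lower, and with thinned cells 313 were higher and 485 lower. In the BAFF and APRIL pathway 5 of 18 were lower and none was higher, a share of 27.8%, near that of all genes, led by Nfkbia at -0.51 (SE 0.07, adjusted p = 2.02e-06) and Nfkb2 at -0.46 (SE 0.09, adjusted p = 0.000311). Of 10 effectors and BH3-only genes 5 were lower, among them the BH3-only genes Bmf at -0.72 (SE 0.16, adjusted p = 0.00127) and Pmaip1 at -0.52 (SE 0.19, adjusted p = 0.0417), while Bak1 was higher at 0.57 (SE 0.10, adjusted p = 5.28e-05). Bmf and Pmaip1 were low as well, at 0 to 12.9 and 2.59 to 10.9 CPM in cycling sums. In the other sums they were at 5.77 to 17.4 and 4.99 to 11.5 CPM. Apaf1, the scaffold of the apoptosome, was higher at 0.67 (SE 0.13, adjusted p = 0.000181), and Cycs was higher at 0.57 (SE 0.08, adjusted p = 1.33e-06). In the IL-6 receptor and JAK-STAT list 5 of 10 were lower and none higher, led by Il6st, its signalling chain, at -0.35 (SE 0.07, adjusted p = 0.000522). Of 8 CD28 and B7 genes 4 were lower and 1 was higher, Cd80, a ligand of CD28, at 1.05 (SE 0.22, adjusted p = 0.000678). Cd80 rests on low levels, 0 to 12.9 CPM in cycling and 0 to 4.84 CPM in the other sums. Bcl2l2, a pro-survival relative of Bcl2, was lower at -0.42 (SE 0.15, adjusted p = 0.0407), the 1 of 3 called in its list. Of the remaining lists, 2 of 7 SLAM genes were higher and 2 lower, 2 of 18 syndecan and heparan sulfate genes higher and 3 lower, 2 of 22 other surface genes higher and 5 lower, and 1 of 6 MCL1 turnover genes lower.

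Whether a class effect differed between tissues was tested for each member in 9 interaction terms, 90 tests in all. None was called, and 13 had an unadjusted p under 0.05. The share of all genes under that limit is not given here, so the 13 are not read as a result. The lowest was Bcl2l11 for cycling in thymus against spleen, with a difference of log2 fold changes of -2.42 (SE 0.56, adjusted p = 0.328), from 2 and 4 UMIs in the cycling cells of female and male thymus. Tnfrsf17 was next: its fall in IgG cells was smaller in thymus than in bone marrow by 1.80 (SE 0.50, adjusted p = 0.338), from the single thymus library with enough IgG cells.

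**Figure D5:**
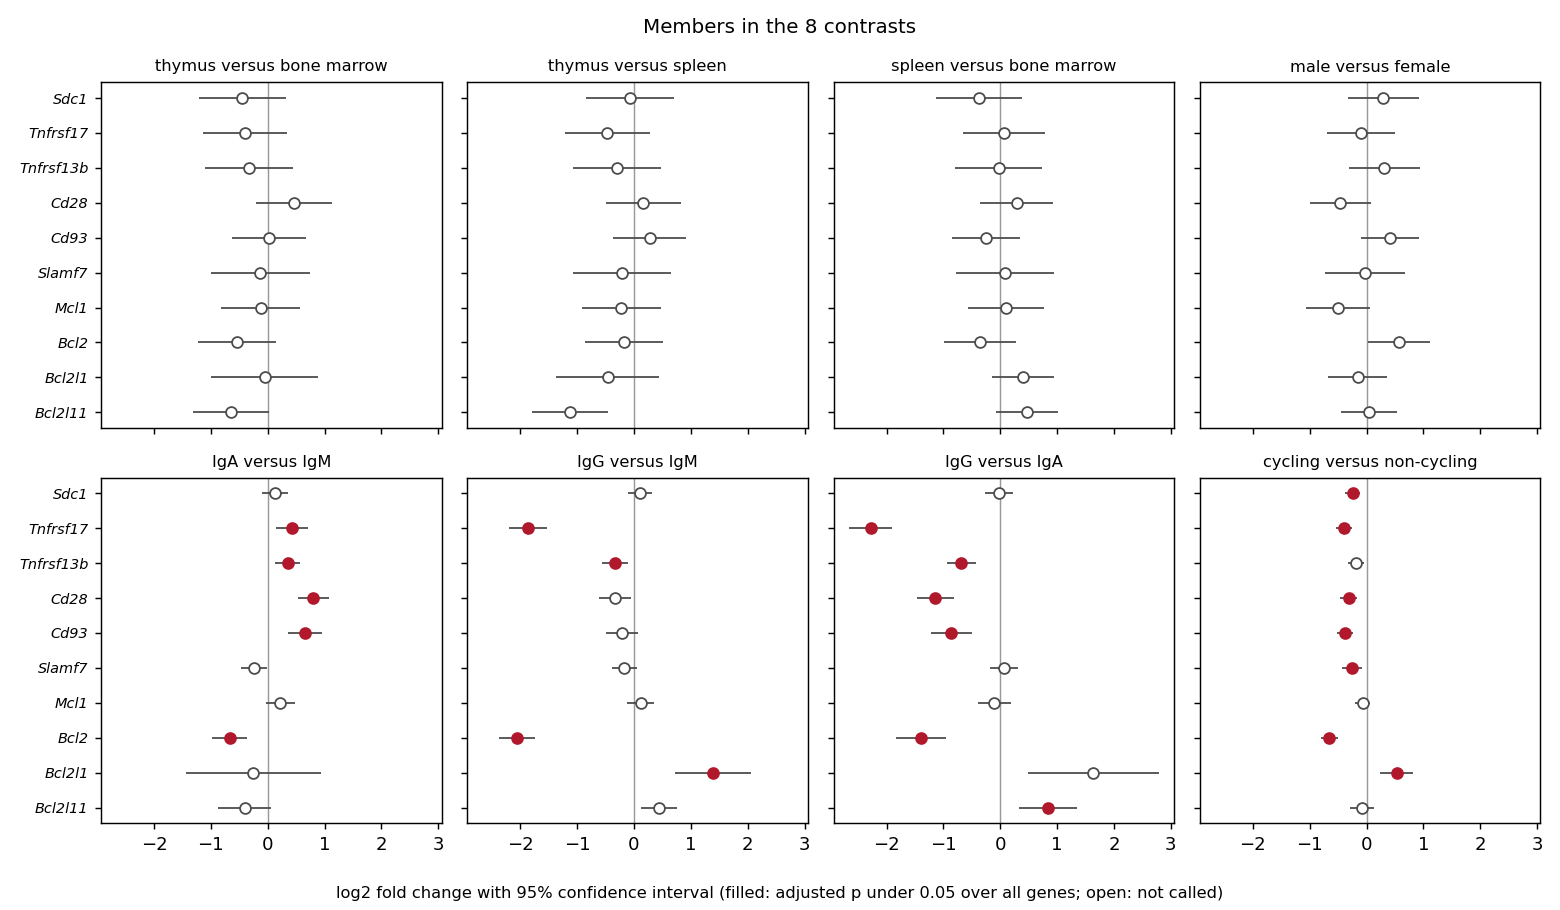
Log2 fold change (x axes, shared, 0 marks no change) of the 10 genes in the 8 contrasts; points are edgeR estimates, filled where called, and bars are 95% intervals. All points of the 4 tissue and sex panels are open, and the filled points farthest from 0 are Tnfrsf17 and Bcl2 in the 2 IgG panels.

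The members' patterns were also set beside those of all genes tested, over 29 sums of a library, isotype and cycling call with at least 20 cells. These sums share libraries and cells of unequal number, so the correlations are given as a description. Tnfrsf17 was most like Jchain, which joins IgM and IgA into polymers (Pearson r of log2(CPM + 1) = 0.87), then Shisa5 (0.84) and Ctsw (0.81). Bcl2 was most like Fam214a (0.85), Txndc5, a protein disulfide isomerase of the secretory pathway (0.85), and Sesn1 (0.84). Cd28 was most like Atp1b1, a sodium pump subunit, at 0.89, Cd93 was most like Mvp at 0.85, Sdc1 like Man2b1 at 0.83, Tnfrsf13b like Cog1 at 0.82, Slamf7 like Zmym6 at 0.80 and Bcl2l1 like Ebp at 0.80. The best values for Mcl1 and Bcl2l11 were 0.68 (Gm15344) and 0.70 (Slc7a7). Among the members themselves the highest values were 0.69 between Cd93 and Tnfrsf13b and 0.68 between Sdc1 and Tnfrsf13b. Bcl2 and Tnfrsf17 were at 0.63, and the lowest was -0.47, between Bcl2 and Bcl2l1.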

How the data were processed

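The deposited gene expression files hold raw UMI counts for each gene in each barcode. Per the submitters' processing notes Cell Ranger 6.0.2 and the builds mm10 and GRCm38 were used; per the file headers the filtered matrices were written by version 6.0.2 and the unfiltered ones by version 4. The deposited V(D)J tables give UMI counts per contig and served to check isotypes. The 10 genes, the lists and the cell conditions were chosen with earlier results of these data known.

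Genes starting with Igh, Igk or Igl (395, including Iglon5, Igll1 and Ighmbp2) were left out of depths and tests. Counts were summed per library or per library and class and tested with edgeR 4.0.16 in R 4.3.3 (quasi-likelihood F-test, filterByExpr, TMM, Benjamini-Hochberg over all genes tested, 0.05). Tissue and sex were additive terms over 6 libraries (2 residual degrees of freedom); class contrasts had library as a block (8 for isotype, 5 for cycling). Doublets were treated only by the light-chain condition. Free RNA was estimated from light-chain V genes other than the cell's own. On simulated data with 200 genes changed by 2 log2 units, 92.5% of them were recovered for thymus against bone marrow, 91.5% for thymus against spleen and 97.5% for spleen against bone marrow. The members' estimates in these contrasts were smaller, from -1.12 to 0.47, and recovery at such sizes was not simulated. The named genes are all 10 members and, per list and contrast, up to 4 called genes by size of change. DESeq2 1.42.0, other scalings, filters, cell limits and leaving out each library were run as alternatives; 3 were added after seeing the data: without Ighv9-3 cells, isotypes from contigs, and without cells carrying markers of other types. Replicate numbers of tissues stand for sex, and whether they pair libraries by mouse was checked. The female-minus-male differences of 10900 genes correlated at 0.44 between bone marrow and spleen. They correlated at 0.12 between bone marrow and thymus and at -0.11 between spleen and thymus. Such values cannot tell shared mice from a shared effect of sex, so pairing was not settled. Figures were drawn with matplotlib 3.10.9. The value of 1 list gene is not reported here.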

Additional observations from a re-analysis of the deposited data

How the results depend on the processing

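Of the 22 calls on members, 11 held under every alternative in which the gene was tested, and none reversed. Bcl2l1 in cycling cells is among the 11, though it was not tested in thinned cells. Of the 58 member results not called, 10 were called under some alternative. Counts of all genes called moved more. In the order thymus against bone marrow, thymus against spleen, spleen against bone marrow, male against female (86, 71, 49 and 48 genes), DESeq2 gave 54, 39, 3 and 7, no filter on low counts 131, 119, 103 and 101, and the 80% light-chain limit 52, 40, 15 and 20. IgA cells alone gave 23, 6, 8 and 73. These settings tested unlike numbers of genes, so their counts are not on 1 scale. The main fit tested 11239, DESeq2 and the fit with no filter 17189, the 80% limit 10193 and IgA cells alone 2219. The fit with no replicate block (without sex, or without tissue) gave 40, 24, 17 and 8 genes, and no call on a member changed. For the last 3 of these contrasts the ribosomal and mitochondrial limits gave 141, 361 and 456, free RNA subtraction 41, 17 and 19, and leaving out Ighv9-3 cells 34, 29 and 19; leaving out cells with markers of other types gave 31 and 29 for spleen against bone marrow and male against female. For IgA against IgM, IgG against IgM, IgG against IgA and cycling (666, 872, 642 and 2574 genes), thinned cells gave 297, 421, 246 and 798, and the 80% limit gave 362, 364 and 1608 for all but IgG against IgM. Thinning left 4476 genes tested against 7440 for isotype, and 6402 against 10768 for cycling. The 80% limit left 6486 for isotype and 9658 for cycling. Leaving out 1 library at a time gave 16 to 353, 33 to 934, 11 to 158 and 10 to 205 genes in the tissue and sex contrasts, 363 to 665, 391 to 911 and 261 to 651 in the isotype contrasts and 1586 to 2745 for cycling. Without male spleen 934 genes were called for thymus against spleen, and without female spleen 353 for thymus against bone marrow. The cause of these shifts was not tested. The isotype contrasts could not be fitted with the ribosomal limit or with a top constant gene at 90%, since too few sums of 20 cells were left. Depth limits Bcl2l1 most, at 0 to 65 UMIs per isotype sum, and thymus, with 107 and 288 cells.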
